A study of Mus musculus with 9 samples.

Results

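Gene expression of the Aurora, Polo and other mitotic kinases was compared between 5 hepatocellular carcinomas of TKO mice and 4 normal mouse livers. The 10 genes, Aurka, Aurkb, Plk1, Plk2, Plk3, Plk4, Nek2, Melk, Pbk and Mastl, were taken by symbol from the platform annotation, where all 10 had at least 1 probe set naming that gene alone. They had 20 probe sets, of 45101 in the deposited table, and were 10 of 18193 genes tested. Where a gene had several, the brightest on average across the 9 arrays served as its main probe set. The tumours carried the genotype RbΔ/Δ, p130Δ/Δ and p107+/-, although their titles say triple knockout, and had been dissected from mice injected through the spleen with Ad-Cre, an adenovirus carrying Cre recombinase, 4 months earlier. The normal livers came from adult wild-type mice without tumours, and no label gives them the virus, so genotype, Ad-Cre and tumour state differed together. The promoter driving Cre, the exact age, strain and sex of the mice and the link from sample to animal were unstated by the labels. The p-values therefore cover only spread among samples that may be technical. Sex was not assigned from the values, although Xist read 6.34 and 6.39 in tumours 1 and 2 and 6.66 in liver 4. On the other arrays Xist read 12.68 to 13.55, so low and high values occurred in both groups. Each sample was read on 1 Affymetrix Mouse Genome 430 2.0 array after 2 rounds of RNA amplification, and the values are the authors' log2 RMA expression values.

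Mitotic kinases are enzymes whose activity rises as a cell enters division. Aurora A, with its activator Tpx2, builds the spindle poles, and Aurora B, in the chromosomal passenger complex, corrects faulty attachments of chromosomes to the spindle. Plk1 drives mitotic entry and cytokinesis, Plk4 starts the copying of centrioles, Nek2 splits the linked centrosomes, and Mastl, also called Greatwall, holds back the phosphatase PP2A-B55. The transcripts of many of these genes are repressed in resting cells by the DREAM complex, which holds p130 or p107 with E2F4 and the MuvB core, and are activated later by B-Myb and FoxM1 through a promoter element called CHR. Adult liver is mostly made of resting hepatocytes. Plk2 and Plk3 belong to the Polo family but were first found as genes induced by serum and growth factors, and both respond to stress and to p53.

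Promoter sequence was given for 8 of the 10 genes in the RefSeq table of mouse build GRCm38.p6, which covers 250 bases before and 50 after each start site. The 250 bases before the start site of 5 of them are shown, 3 kinases of division and the 2 stress-induced Polo kinases, because the expression values below separate the pairs. Capitals mark a CCAAT box (CCAAT, either strand), which binds NF-Y, or a cAMP response element (TGACGTCA), and the last base lies next to the start site. The sequences read 5′ to 3′ along the gene.
Plk1, chr7:122159185-122159434, plus strand: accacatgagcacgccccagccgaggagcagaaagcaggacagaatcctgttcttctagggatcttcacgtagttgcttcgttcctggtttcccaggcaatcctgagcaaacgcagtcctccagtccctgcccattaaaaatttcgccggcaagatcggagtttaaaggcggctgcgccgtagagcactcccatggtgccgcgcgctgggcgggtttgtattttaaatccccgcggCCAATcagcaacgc
Aurka, chr2:172370571-172370820, minus strand: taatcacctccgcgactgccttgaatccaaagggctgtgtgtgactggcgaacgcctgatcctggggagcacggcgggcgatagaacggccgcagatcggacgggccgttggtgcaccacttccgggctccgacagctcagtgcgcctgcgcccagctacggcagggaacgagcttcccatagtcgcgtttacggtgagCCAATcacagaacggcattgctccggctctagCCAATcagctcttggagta
Plk4, chr3:40799701-40799950, plus strand: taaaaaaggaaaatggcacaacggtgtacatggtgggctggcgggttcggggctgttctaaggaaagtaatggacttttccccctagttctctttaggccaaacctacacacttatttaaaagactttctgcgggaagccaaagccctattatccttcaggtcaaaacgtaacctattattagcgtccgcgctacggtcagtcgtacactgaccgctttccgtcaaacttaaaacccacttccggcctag
Plk2, chr13:110394794-110395043, plus strand: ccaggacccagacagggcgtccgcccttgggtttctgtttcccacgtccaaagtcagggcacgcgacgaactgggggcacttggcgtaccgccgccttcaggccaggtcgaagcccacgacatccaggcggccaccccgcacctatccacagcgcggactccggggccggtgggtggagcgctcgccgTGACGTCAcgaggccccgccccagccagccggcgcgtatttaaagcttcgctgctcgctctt
Plk3, chr4:117133964-117134213, minus strand: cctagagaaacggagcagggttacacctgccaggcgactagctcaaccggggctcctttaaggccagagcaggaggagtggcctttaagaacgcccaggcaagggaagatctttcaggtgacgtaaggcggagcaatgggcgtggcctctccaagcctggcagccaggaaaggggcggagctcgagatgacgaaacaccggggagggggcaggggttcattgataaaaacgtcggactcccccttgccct

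A CCAAT box stood in the 300-base windows of Aurka, Mastl, Nek2 and Plk1, 4 of 8 genes, and in 37.4% of all 32851 windows. In Plk1 it began 14 bases before the start site and in Aurka it occurred at 51 and 19 bases before it. A CHR element, searched as TTTGAA or TTCGAA on both strands, was found after the start site in Plk1, at base 31, and in Aurka, at base 33, against 19.2% of all windows. CHR and CCAAT together occurred in these 2 genes and in 7.52% of all windows. None of the 8 windows held an E2F site spelled TTTCCCGC, TTTCGCGC, TTTGCCGC or TTTGGCGC, which 2.26% of all windows held. The palindrome TGACGTCA lay 62 bases before the start site of Plk2 and in 1.79% of all windows. No AP-1 site (TGACTCA or TGAGTCA, 5.20% of windows) and no CArG box (1.63% of windows) or TATA box (TATAAA, 13.6% of windows) was found in the windows of the 8 genes. None of these motifs overlapped another in the windows of the 8 genes. These matches describe letters in a short window and say nothing about binding.

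The kinases of division were high in all tumours and low in all livers, whereas the stress-induced Polo kinases were not separated. With limma, 9 of the 10 genes were higher in the tumours at an adjusted p below 0.05, against 16.1% of all genes, none was lower, against 17.4% of all genes, and Plk3 did not pass. The median log2 difference over the 10 genes was 4.05, and over all genes -0.08. Of the 10 genes, 7 were called and at least 8-fold higher, which 1.00% of all genes were. In 8 of the 10, every tumour lay above every liver, against 14.0% of all genes, and the exceptions were Plk2 and Plk3. In RNA from whole tissue, more dividing cells and more transcript per cell cannot be told apart.

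**Figure D1:**
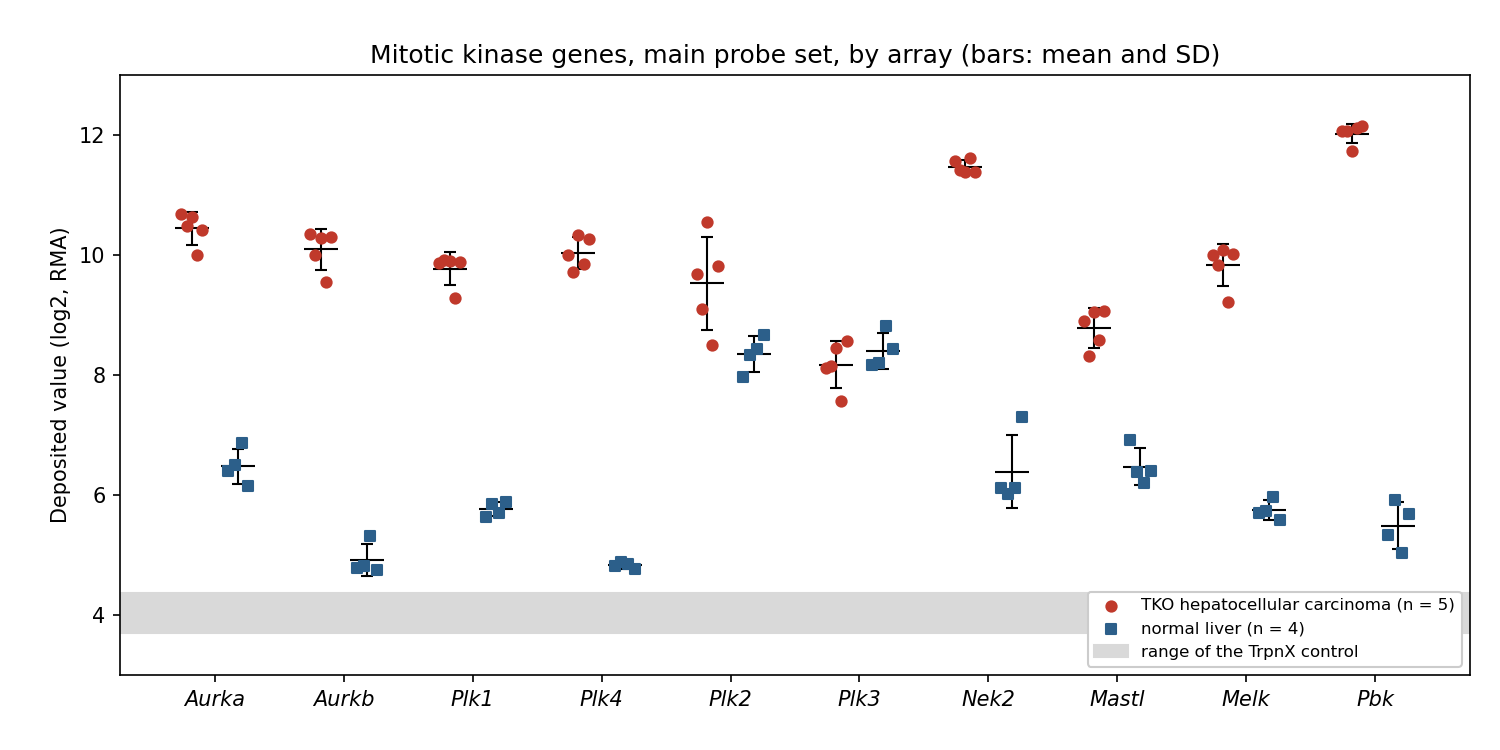
Deposited log2 values (vertical axis) of the main probe set of each gene on every array, tumours as circles left of livers as squares, with mean and SD as bars, and the range of the TrpnX control in grey. Plk2 and Plk3 are the genes whose groups overlap, and the other 8 are separated by at least 1.40 log2 units between the lowest tumour and the highest liver.

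The arrays were alike in overall level, with medians over all probe sets of 6.22 to 6.27, and precision is limited by how few arrays there were. TrpnX, a bacterial control with no target in mouse RNA, read 3.69 to 4.36 and marks the background. Of the genes targeted in these mice, Rbl2 (p130) averaged 7.81 ± 0.64 in tumours and 9.80 ± 0.25 in livers (SD, n = 5 and 4). Rb1 gave 9.03 ± 0.27 for tumours against 7.98 ± 0.28 for livers, and Rbl1 (p107) 4.76 ± 0.08 against 4.94 ± 0.67. The labels do not say which exons were deleted, so these probe sets do not check the genotype. The log2 ratio of 3′ to 5′ Actb control probe sets, a measure of RNA length, came to 0.53 to 0.72 in tumours, against 0.91 to 1.00 in livers (two-sided p = 0.00794 by exact permutation, the lowest value possible here, and 0.0159 adjusted over 2 controls). The same ratio for Gapdh lay in the opposite direction, at -0.24 to -0.18 in tumours and -0.32 to -0.21 in livers, with groups that overlapped (exact permutation p = 0.0635, 0.0635 adjusted), so the 2 controls did not give 1 direction. The part of RNA length in the results was not tested. Hepatocyte markers averaged 12.93 to 14.13 in tumours and 14.53 to 14.58 in livers, and 1 of 7, Cyp2e1, passed, being lower. No marker was higher among 6 endothelial, 6 macrophage, 5 T cell, 3 B cell and 4 neutrophil genes. Of these, 3 endothelial, 3 macrophage and 1 B cell gene were lower. Among 7 stellate and fibroblast genes 2 were higher and 2 lower, among 5 bile duct genes 1 was higher and 1 lower with Cftr at the TrpnX level on all arrays, and Tfrc was higher among 3 erythroid genes. All 5 measured proliferation markers, Mki67, Pcna, Top2a, Ccna2 and Mcm2, were higher, with mean levels of 11.81 to 12.36 in tumours, against 7.16 to 7.61 in livers.

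Of the Aurora kinases, Aurka and Aurkb rose. Aurka, which encodes Aurora A of the spindle poles, read 10.68, 10.48, 10.64, 10.005 and 10.41 in tumours 1 to 5, against 6.41, 6.496, 6.86 and 6.16 in livers 1 to 4. Its lowest value among tumours was in tumour 4, still far above the highest liver. The log2 difference was 3.96 (SE 0.17, adjusted p = 4.92e-07), a 15.6-fold increase. The second Aurka probe set, 1440129_at, stayed near background at 4.71 ± 0.26 in tumours and 4.93 ± 0.06 in livers (SD, n = 5 and 4), and did not pass (log2 difference -0.22, 95% interval -0.51 to 0.07). The mean of both Aurka probe sets gave 1.87 (adjusted p = 2.18e-05). Aurkb, which encodes Aurora B, read 10.35, 9.99, 10.29, 9.54 and 10.30 in tumours and 4.79, 4.81, 5.32 and 4.74 in livers. The tumours again lay above all livers, with tumour 4 lowest among them and liver 3 highest among the livers. The difference was 5.18 (SE 0.19, adjusted p = 1.90e-07), or 36.3-fold. The other Aurkb probe set, 1424128_x_at, gave 5.68 (SE 0.28), with livers 3 and 4 within the range of the TrpnX control. Both Aurkb probe sets are of the x_at or s_at kind, which can bind transcripts of similar genes. Aurkc, the third Aurora kinase and mainly a gene of germ cells, was looked at after its values were seen: it read 4.98 to 5.26 in tumours and 5.10 to 5.49 in livers, a difference of -0.19 (SE 0.11, adjusted p = 0.205).

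Among the Polo kinases, Plk1 and Plk4 were higher in every tumour than in any liver. Plk1 read 9.87, 9.92, 9.90, 9.28 and 9.89 in tumours, against 5.63, 5.84, 5.70 and 5.88 in livers. Tumour 4 was the lowest tumour, the other tumours lay close together, and no liver came near them. The log2 difference was 4.01 (SE 0.14, adjusted p = 1.43e-07), or 16.1-fold, from the single probe set of this gene. Plk4 read 9.99, 9.72, 10.33, 9.86 and 10.27 in tumours and 4.81, 4.89, 4.84 and 4.76 in livers. The livers differed among themselves by less than those of any other member (SD 0.05, n = 4). The Plk4 difference was 5.21 (SE 0.13, adjusted p = 2.88e-08), or 37-fold. Its probe sets 1426580_at and 1452115_a_at gave smaller differences, 4.05 (SE 0.19) and 3.35 (SE 0.20), both past the threshold, and the mean of all 3 gave 4.20, so the direction did not depend on the probe set but the size did.

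Plk2 and Plk3 did not follow this pattern. Plk2 read 9.68, 9.10, 10.56, 8.50 and 9.81 in tumours, against 7.96, 8.33, 8.43 and 8.67 in livers. Tumour 4 lay below liver 4, tumour 3 was the highest, and the SD among tumours, 0.77, was the largest of the 10 genes. The log2 difference of 1.18 (SE 0.36, adjusted p = 0.0342), or 2.27-fold, passed narrowly, and it lost its call without tumour 1 (1.15), tumour 5 (1.11), liver 1 (1.05), liver 2 (1.18) or liver 3 (1.21). The second Plk2 probe set, 1443780_at, averaged 5.29 ± 0.20 in tumours and 5.44 ± 0.20 in livers and did not pass (-0.15, 95% interval -0.43 to 0.14), and the mean of the pair gave 0.52 (adjusted p = 0.0752). Plk3 read 8.11, 8.15, 8.45, 7.56 and 8.57 in tumours and 8.16, 8.20, 8.82 and 8.44 in livers. The groups overlapped over most of their range, and the lowest value was again in tumour 4. The difference was -0.24 (SE 0.21, 95% interval -0.72 to 0.25, adjusted p = 0.413). This interval holds for the scaling of the deposited values, and over the alternatives run the Plk3 difference lay between -0.42 and -0.03. The value of -0.42 came from centring on the 75th percentile. The value of -0.03 came from centring on housekeeping genes, where the reference was a single gene that changed between arrays. Other scalings could move Plk3 outside this range. Plk5, the fifth Polo gene, was looked at after its values were seen and differed by 0.10 (SE 0.15, adjusted p = 0.635).

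The contrast of Plk1 and Plk4 with Plk2 and Plk3 was tested as the difference between 2 probe sets within each array. The level of such a difference has no meaning between probe sets. Its change between groups can be read, but its size still depends on the probe sets used, as seen above for Plk2 and Plk4. Plk1 minus Plk2 came to 0.19, 0.82, -0.66, 0.78 and 0.07 in tumours, against -2.33, -2.49, -2.73 and -2.79 in livers. All tumours lay above all livers, and the tumours differed among themselves mainly through Plk2. For this pair the groups differed by 2.83 (SE 0.29), and for Plk1 minus Plk3 by 4.24 (SE 0.19). Plk4 minus Plk3 was 1.88, 1.57, 1.88, 2.29 and 1.70 in tumours, against -3.35, -3.32, -3.97 and -3.67 in livers, a difference of 5.45 (SE 0.20). Plk4 minus Plk2 differed by 4.03 (SE 0.30). In each of the 4 pairs the exact permutation test over 126 splits gave a two-sided p of 0.00794, the smallest this design allows. Adjusted over the 4 pairs this p stayed at 0.00794, with all 5 tumours above all 4 livers. The 4 pairs reuse the same 4 genes, so they are not independent, and Plk1 and Plk4 each separated the groups by themselves.

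**Figure D2:**
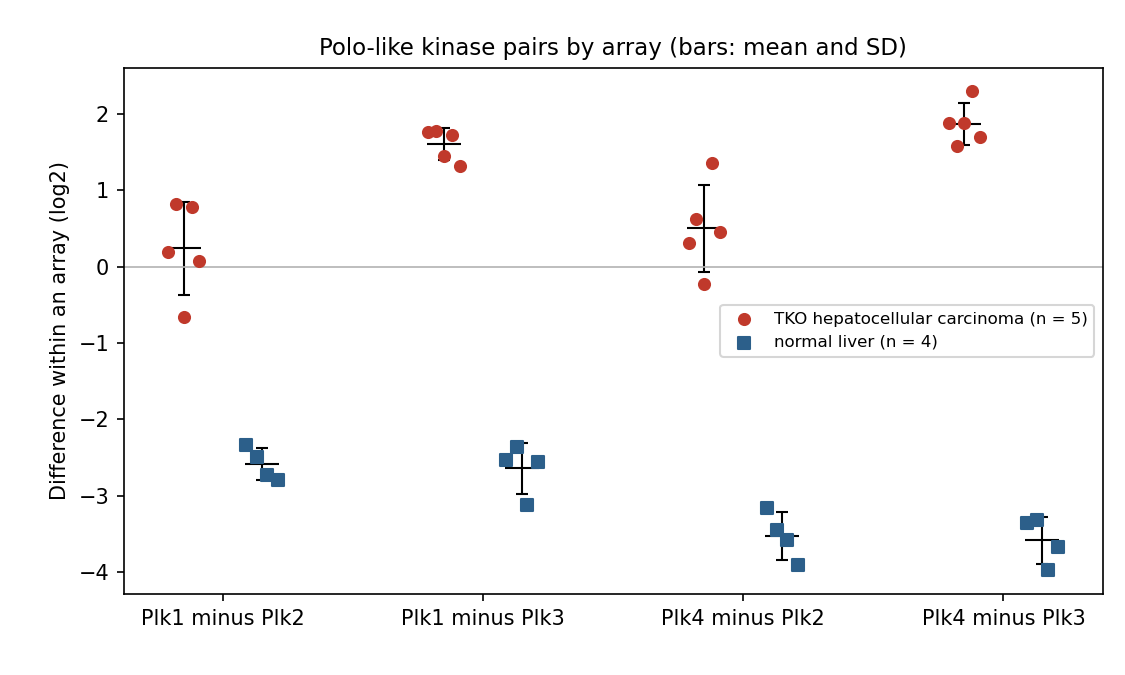
Difference of log2 values between 2 Polo-like kinase genes within an array (vertical axis) for the 4 pairs, tumours as circles left of livers as squares, with mean and SD as bars. All tumours lie above all livers in each pair, and Plk1 minus Plk3 has the smallest spread among tumours (SD 0.21).

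Nek2, Melk, Pbk and Mastl rose as well, by amounts that differed widely. Pbk, a kinase gene known from testis and from dividing cells, read 12.06, 12.06, 11.74, 12.11 and 12.14 in tumours, against 5.33, 5.91, 5.03 and 5.69 in livers. Tumour 3 was the lowest of the tumours, and its value was still over 5 units above the highest liver. The log2 difference was 6.53 (SE 0.18, adjusted p = 3.30e-08), or 92.6-fold, rank 6 by size among all genes and the largest of the 10, from an s_at probe set. Nek2, the centrosome kinase, read 11.56, 11.41, 11.38, 11.61 and 11.39 in tumours and 6.11, 6.02, 6.11 and 7.29 in livers. Liver 4 stood over 1 unit above the other livers, while the tumours were the most uniform of the 10 genes (SD 0.11, n = 5). The difference was 5.08 (SE 0.24, adjusted p = 8.93e-07), or 33.9-fold. Its other probe sets gave 3.21 (SE 0.12) for 1417299_at, 0.55 (SE 0.11, adjusted p = 0.00543) for 1443999_at and 0.01 (95% interval -0.28 to 0.30) for 1437579_at. The last 2 were dim in both groups, with means of 5.21 to 5.81, and the mean of all 4 gave 2.22 (adjusted p = 3.97e-07), so the size of the Nek2 increase depended on the probe set.

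Melk, a kinase gene much used as a mark of proliferating progenitor and tumour cells, read 9.999, 9.84, 10.09, 9.22 and 10.02 in tumours, against 5.71, 5.73, 5.97 and 5.58 in livers. Tumour 4 was the lowest tumour, and the groups were separated by more than 3 units. The difference was 4.09 (SE 0.18, adjusted p = 4.86e-07), or 17.0-fold. Mastl (Greatwall) read 8.91, 8.31, 9.05, 8.58 and 9.07 in tumours and 6.91, 6.38, 6.19 and 6.40 in livers. It had the smallest difference of the 8 separated genes, 2.31 (SE 0.20, adjusted p = 4.14e-05), or 4.97-fold. The dimmer probe sets 1423524_at and 1444725_at gave 3.09 (SE 0.23) and 1.05 (SE 0.08), both past the threshold and with groups that did not overlap. Over all 20 probe sets of the 10 genes, 16 were higher at an adjusted p below 0.05, against 13.5% of all probe sets, none was lower, against 14.5%, and 4 did not pass. Those 4 were the single one of Plk3 and dimmer ones of Aurka, Plk2 and Nek2. Where livers are low, choosing the brightest probe set rests mostly on the tumour values and can favour a larger difference. The main probe set had the largest difference of its gene for Aurka, Plk2, Plk4 and Nek2, and not for Aurkb and Mastl. Of the main probe sets, 4 were of the x_at or s_at kind. Without such probe sets Plk4 gave 4.05 and Nek2 3.21, each less by over 1.5-fold on the linear scale, and Aurkb and Pbk had none left.

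**Figure D3:**
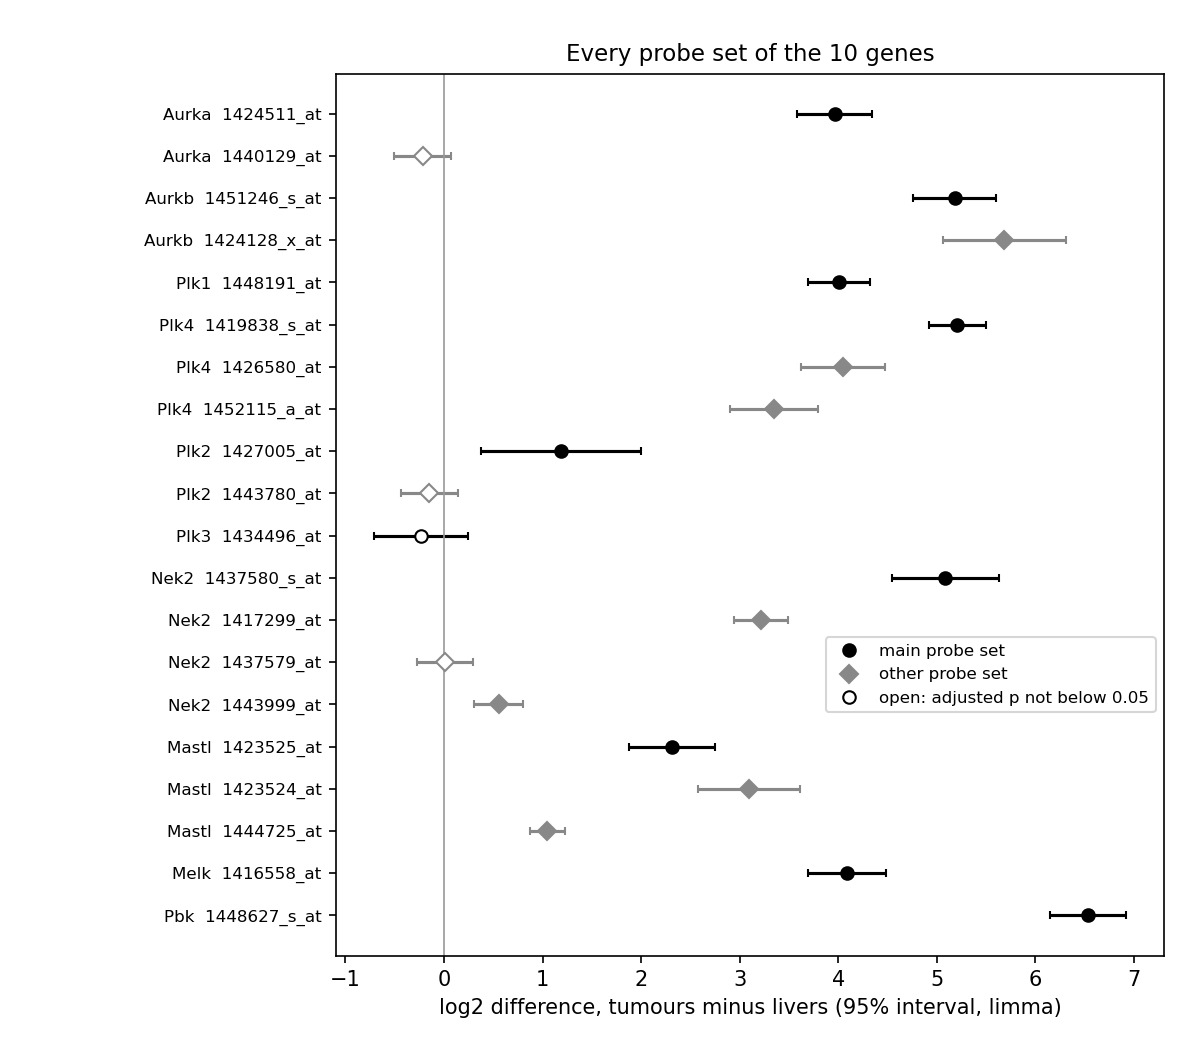
The log2 difference between tumours and livers (horizontal axis, limma, 95% interval) for every probe set of the 10 genes, main probe sets in black circles, others in grey diamonds, open where the adjusted p over all probe sets was not below 0.05. Main probe sets run from -0.24 for Plk3 to 6.53 for Pbk.

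The members also differed in how they varied from tumour to tumour. Tumour 4 had the lowest value of the 5 tumours for Aurka, Aurkb, Plk1, Plk2, Plk3 and Melk, 6 of the 10 genes, at -0.44 to -1.03 relative to the tumour mean. It had the highest value for Nek2 and lay 0.09 above the mean for Pbk. Tumour 2 was lowest for Plk4 and Mastl, at -0.31 and -0.47 relative to the mean, and tumour 3 for Nek2 and Pbk. Among the 182 genes called and at least 8-fold higher, tumour 4 was the lowest tumour for 39.0% and tumour 2 for 31.3%, while over all genes the shares were 21.7% and 24.5%. On a scale where the average liver is 0 and the average tumour 1, computed for each array without its own values, tumours 2 and 4 stood at 0.75 and 0.84 and the others at 1.02 to 1.06. The spread of Plk2 over the tumours, 2.05 from lowest to highest, was over 3 times that of Plk1, 0.64, and that of Nek2 was 0.23.

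**Figure D4:**
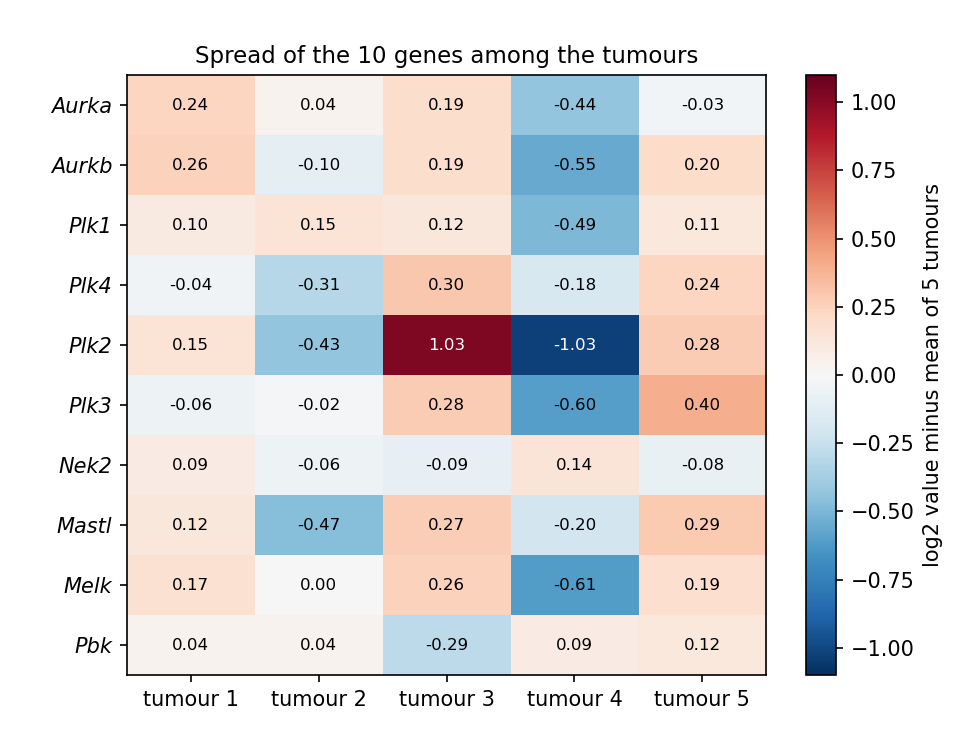
Log2 value of each gene in each tumour minus its mean over the 5 tumours, written in the cells and shown by colour (red above, blue below the mean). Tumour 4 is below the mean for 8 of the 10 genes, with Nek2 and Pbk above it.

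Over all 9 arrays, the genes with profiles most like each member were measured by the root mean square difference between profiles, each taken as log2 values minus their own mean. Among 16302 other named genes, Racgap1, needed for cytokinesis, was nearest to Plk4 (0.11), then Cdca3 (0.15) and Cip2a (0.20). Mad2l1, a spindle checkpoint gene, was nearest to Melk (0.11), then Prc1 (0.14) and Arhgap11a (0.18). The order for Aurka was Arhgap11a (0.16), Smc2 (0.17) and Prc1 (0.17), and for Aurkb Depdc1a (0.22), Bub1 (0.23) and Ncapg2 (0.25). The differences of these neighbours of Plk4, Melk, Aurka and Aurkb lay between 3.96 and 5.45. Plk1 was closest to Anln (0.17), Mcm7 (0.19) and Tubb6 (0.20), and Mastl to Rad18 (0.14), Haus5 (0.14) and Chtf18 (0.20). Nek2 had less close neighbours, Ska1 (0.29), Depdc1a (0.33) and Cdk1 (0.33), as had Pbk, with Uhrf1 (0.26), Esco2 (0.29) and Birc5 (0.35). The neighbours of Plk2 were Pdgfb (0.22), Gsr (0.26) and Tpd52 (0.28), and those of Plk3 were Amn1 (0.14), Ostf1 (0.15) and Dkk3 (0.17). Within the 10 genes the closest pair was Aurka and Melk (0.14), whereas the nearest member to Plk3, Plk2, lay at 0.79. With arrays in 2 groups, these distances reflect mostly the size of the difference between groups.

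Most partners of the Aurora kinases were higher in the tumours too. Of 13 measured genes of Aurora activators and the chromosomal passenger complex, 12 were higher, none was lower and 1 did not pass, with a median log2 difference of 3.25. Of all genes, 16.1% were higher and 17.4% lower, with a median of -0.08, and the counts of each list below stand beside these values. Birc5 (survivin), which docks Aurora B at the centromere, differed by 6.89 (SE 0.19) and Kif20a, a kinesin of the central spindle, by 5.24 (SE 0.22). Tdrd7 had the smallest increase, 0.44 (SE 0.12, adjusted p = 0.0229). Ajuba, an activator of Aurora A, ranged from 6.27 to 10.41 in tumours and from 7.16 to 7.75 in livers, and its difference of 1.20 did not pass (adjusted p = 0.208). Tpx2 itself read 9.69, 9.46, 9.99, 9.22 and 9.61 in tumours and 5.78, 5.82, 5.94 and 5.91 in livers, so that activator and kinase were both low in every liver.

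Plk1 substrates and the genes of its degradation rose in 17 of 19 cases, none was lower, and the median was 3.18. Ube2c, which hands ubiquitin to the anaphase-promoting complex, differed by 5.82 (SE 0.25) and Cdc20, its activator, by 5.60 (SE 0.21). Ninl was at the TrpnX level on all arrays. Pttg1 (securin) averaged 12.60 ± 0.27 in tumours and 12.49 ± 0.07 in livers (SD, n = 5 and 4) and did not pass (adjusted p = 0.540), although its partner gene Espl1, the protease separase, read 9.14 to 9.96 in tumours and 5.35 to 5.75 in livers. The Pttg1 probe set is of the s_at kind. Of 12 genes acting with Plk4 in centriole duplication, 7 were higher, none lower and 5 did not pass, with a median of 0.76. Stil, which binds and activates Plk4, differed by 3.30 (SE 0.21) and Cep192, which recruits it, by 3.11 (SE 0.18). Cep63, a centrosome gene, and Btrc, part of the ubiquitin ligase that degrades Plk4, gave -0.35 and -0.29 without passing (adjusted p = 0.124 and 0.0687). The largest difference among the centriole genes, 3.30, was below that of Plk4 itself, 5.21.

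Genes that act downstream of Mastl had smaller differences, in both directions. Of 10 genes for Ensa, Arpp19 and subunits of PP2A, 4 were higher and 2 lower, with a median of 0.21. Ppp2r2a, a B55 subunit, differed by 0.70 (SE 0.15), while Ppp2r1b, a scaffold subunit, fell by 0.72 (SE 0.08) and Ppp2r2b fell by 0.37 (SE 0.09) close to background. Ensa, a direct substrate of Greatwall, read 9.66, 12.004, 9.60, 9.61 and 9.99 in tumours and 9.18, 9.38, 9.22 and 9.02 in livers. Tumour 2 alone stood over 2 units above the rest, and the difference of 0.97 did not pass (adjusted p = 0.134). In the NEK family, 3 of 8 other genes were higher and 1 lower, with a median of 0.25. Nek6, a mitotic kinase that acts with Nek7 and Nek9, differed by 0.92 (SE 0.22, adjusted p = 0.0109) and Nek11 fell by 0.28 (SE 0.09, adjusted p = 0.0408), while Nek3 (0.71, adjusted p = 0.137) and Nek7 (-0.29, adjusted p = 0.291) did not pass. The largest difference in the rest of the family, 0.92, was below that of Nek2, 5.08.

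Of 16 other kinases with roles in mitosis, 7 were higher, none was lower and 9 did not pass, with a median of 0.22. Cdk1, the kinase that starts mitosis, read 12.12, 12.10, 12.31, 12.27 and 12.18 in tumours, against 6.36, 6.17, 6.79 and 7.15 in livers, a difference of 5.58 (SE 0.18). Bub1, a spindle checkpoint kinase, differed by 5.45 (SE 0.22), from a liver mean at the top of the TrpnX range. Slk and Lats2 gave -0.36 and -0.38 without passing (adjusted p = 0.0911 and 0.127). The 7 higher genes differed by 0.92 to 5.58, and the 9 that did not pass lay between -0.38 and 0.25.

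**Figure D5:**
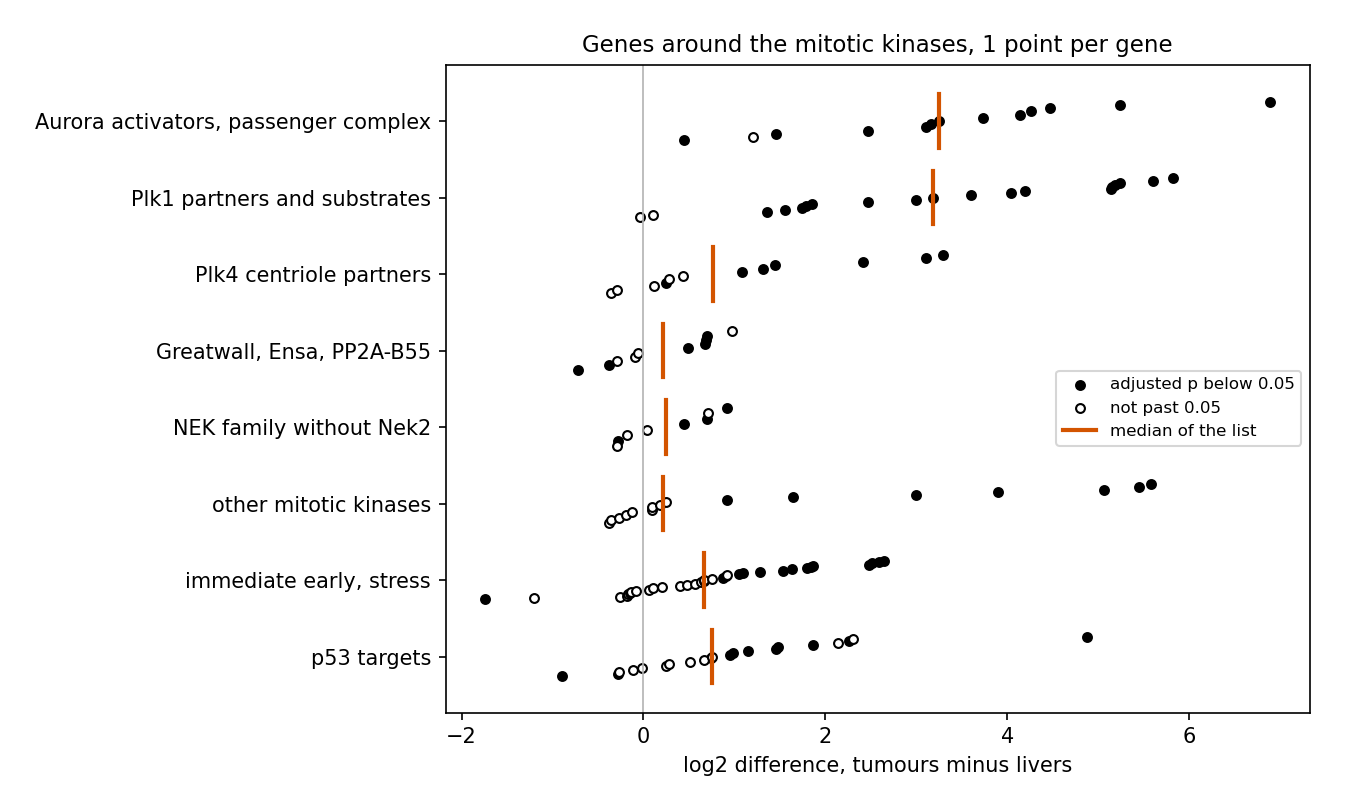
The log2 difference between tumours and livers (horizontal axis) for every measured gene of 8 lists around the mitotic kinases, filled where the adjusted p was below 0.05, with the median of each list as an orange bar. The medians are 3.25 and 3.18 for the partners of Aurora kinases and Plk1 and 0.21 to 0.76 for the other lists.

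Genes that respond to stress, to growth factors and to p53 were set beside Plk2 and Plk3. Of 33 immediate early and stress-induced genes, 13 were higher, 1 was lower and 19 did not pass, with a median of 0.67. Ier3 read 9.60, 8.36, 10.63, 8.43 and 10.40 in tumours, against 7.003, 6.85, 6.84 and 6.65 in livers, a difference of 2.65 (SE 0.48, adjusted p = 0.00308). As for Plk2, its lowest tumours were 2 and 4 and its highest was tumour 3. Jun differed by 2.60 (SE 0.51), Gadd45g fell by 1.74 (SE 0.45) and Hspa1b gave -1.20 without passing (adjusted p = 0.0842). Of 21 p53 targets, 9 were higher, 2 lower and 10 did not pass, with a median of 0.76. Cdkn1a (p21), an inhibitor of cyclin-dependent kinases, read 12.996, 11.33, 13.15, 11.51 and 12.80 in tumours and 8.14, 6.79, 7.47 and 7.51 in livers. Its lowest tumours were also 2 and 4. This order was not shared by all genes of the lists, as Gadd45g was highest in tumours 4 and 2 (8.72 and 7.29). Tumours 4 and 2 were each the single lowest tumour for 39.0% and 31.3% of the 182 genes called and at least 8-fold higher. How many of those genes had both tumours as their lowest was not counted. Whether the order is particular to these lists therefore cannot be said. Pmaip1 spanned 4.52 to 9.22 in tumours and 4.66 to 5.34 in livers without passing (2.31, adjusted p = 0.0527), with tumour 2 below all livers, and Fas and Rrm2b fell by 0.89 and 0.27. Plk3 differed by -0.24 while 13 of these 33 stress genes rose.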

How the data were processed

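Per the labels' protocols, RNA was isolated with Trizol and amplified with a RiboAmp kit before each of the 9 samples was put on its own Affymetrix array. The deposited table holds log2 expression values of 45101 probe sets, which the authors computed with RMA, according to the submitters' processing notes. Its settings and any scan batches were not stated. Repeated amplification can favour the 3′ part of a transcript, and RMA makes differences of dim probe sets smaller.

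Samples were grouped by title. Of the probe sets, 34945 named 1 gene, 932 several and 9160 none, and 64 control probe sets were not used. Symbols were checked against GRCm38.p6 RefSeq gene identifiers: 34741 were found and 0 changed. The brightest probe set per gene, over all arrays, gave 18193 genes. Differences were tested with limma 3.58.1 (lmFit, eBayes, two-sided) in R 4.3.3, adjusted by Benjamini-Hochberg over all genes, or over all probe sets for single probe sets, at a threshold of 0.05. Adjusted p-values of genes come from this limma fit. No dim probe set was left out. Polo pairs and RNA length used exact permutation tests, enumerated in Python 3.11.15. The fit was tested on simulated data. No 2 arrays were duplicates (smallest root mean square difference 0.295).

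The members and lists were chosen with earlier results of these data known, so list counts and medians are descriptions. The lists share genes, such as Kif20a in those of Aurora and Plk1, so their counts are not independent. The text names all members, the 2 highest and 2 lowest genes of each list, the 3 nearest profiles of each member (provisional symbols excluded) and the targeted genes, and also Tpx2, Espl1, Aurkc and Plk5, chosen after their values were seen. Alternatives were the mean of all probe sets, x_at and s_at probe sets left out, dim probe sets left out, other centrings, limma with trend or array weights, Xist as a covariate, a studentised permutation test, a replicate block and leaving out each array.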

Additional observations from a re-analysis of the deposited data

Results flagged for a closer look

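In 6 of 48 groups of values examined (20 probe sets and 4 Polo pairs, in tumours and in livers) 1 array stood apart from the rest of its group by Dixon's test at the 95% level, and chance gives about 1 in 20. Tumour 4 was low for Plk1, at 9.28 against 9.87 to 9.92 in the other tumours, and for Melk, at 9.22 against 9.84 to 10.09. Tumour 3 was low for Pbk, at 11.74 against 12.06 to 12.14. Liver 4 was high for Nek2 with its main probe set, at 7.29 against 6.02 to 6.11 in the other livers, and low for the Plk4 probe set 1426580_at, at 4.81 against 5.47 to 5.58. Liver 3 was high for Aurkb with its main probe set, at 5.32 against 4.74 to 4.81. In each case the array stayed on its own group's side of the gap between tumours and livers.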

How the results depend on the processing

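Apart from Plk2, every member kept its direction and its side of the threshold in all alternatives in which it was measured. The mean of all probe sets moved Aurka to 1.87, Nek2 to 2.22 and Plk4 to 4.20, each past the threshold. Plk2 lost its call with the mean of all probe sets (0.52) and with the replicate block (1.11, adjusted p = 0.114), and leaving out 1 array moved it between 0.93 and 1.44. Where it lost its call the count of higher members was 8 in place of 9, and the cause was not tested. Leaving out 1 array, the 4 Polo contrasts ranged from 2.68 to 3.05 (Plk1 minus Plk2), 4.09 to 4.34 (Plk1 minus Plk3), 3.81 to 4.21 (Plk4 minus Plk2) and 5.31 to 5.53 (Plk4 minus Plk3). With the mean of all probe sets the contrasts were 3.49, 4.24, 3.68 and 4.44 in the same order, so the sizes of those with Plk2 or Plk4 depended on the probe sets. With the replicate block they were 2.87, 4.32, 4.04 and 5.49, and the p of 0.125 is the smallest that 4 pairs allow. The labels do not say whether the replicate numbers of the titles pair the samples. Correlations of same-numbered deviations were -0.13, -0.07, 0.18 and -0.12 across genes, which cannot decide it. The block changed no other call of a member, and gave 2021 genes higher and 1531 lower, against 2926 and 3165. Centring on housekeeping genes took the median level of 13 such genes on each array, which was the level of 1 gene. That gene was Pgk1 in tumours 1 to 3 and livers 2 to 4, Ywhaz in tumours 4 and 5, and Sdha in liver 1. This setting thus depends on which gene was taken, and did not remove the median difference of the 13 genes. It shifted the median of all genes by 0.20 and gave 2372 higher and 738 lower. Centring on the 75th percentile shifted that median by -0.18 and gave 2306 and 8040. Of 13 housekeeping genes 7 were higher, such as Polr2a (1.13) and Ywhaz (1.02), 1 was lower (Sdha, -0.88) and 5 did not pass, such as Pgk1 (-0.28), with a median of 0.40. Higher calls were 48.0% of calls, and 76.3% and 22.3% with these centrings. Relative to the median of all genes, Plk3 stood at -0.16 and Plk2 at 1.26. Background hybridisation can limit the size of differences where liver values approach the TrpnX range of 3.69 to 4.36. The livers read 4.74 to 5.32 for Aurkb and 4.76 to 4.89 for Plk4 with main probe sets, not far above that range. Whether this made their differences smaller was not tested.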

Other observations

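Genes whose proteins the anaphase-promoting complex destroys with Cdh1 as mitosis ends, a fate shared by Aurora A and Plk1, were covered by a list of 17 names, of which 15 were analysed here. All 15 were higher, with a median log2 difference of 3.73. Some of them were counted above, such as Tpx2 and Birc5 in the Aurora list and Cdc20 and Foxm1 in the Plk1 list. Ccnb1 was not analysed here, and Pttg1, another target of this complex that the list did not hold, did not pass (0.11, adjusted p = 0.540). Ccnb2, a mitotic cyclin, differed by 6.42 (SE 0.16), while Gmnn, the inhibitor of replication licensing, differed by 1.93 (SE 0.19) and Foxm1 by 1.36 (SE 0.13, adjusted p = 7.88e-05).

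Of 20 regulators around B-Myb, FoxM1, E2F and the MuvB core, 12 were higher, 1 was lower and 7 did not pass, with a median of 0.57. The 12 include Rb1 (1.05), a gene targeted in these mice, and the list also holds the targeted Rbl1 and Rbl2. As said above, the probe sets of these targeted genes do not check the genotype. Foxm1 read 8.52, 8.51, 8.28, 7.96 and 8.55 in tumours and 7.09, 7.04, 6.90 and 7.004 in livers. The largest differences were those of E2f7 and E2f8, 3.48 (SE 0.27) and 3.16 (SE 0.25), atypical E2F repressors. Rbl2, which encodes the p130 protein of the DREAM complex and was targeted in these mice, was the gene that fell. With main probe sets, the differences of these regulators were smaller than those of Aurka, Aurkb, Plk1, Plk4, Nek2, Melk and Pbk. Those of E2f7 and E2f8 were larger than those of Mastl (2.31), Plk2 (1.18) and Plk3 (-0.24). The Plk4 probe set 1452115_a_at (3.35) and the Nek2 probe set 1417299_at (3.21) also lay below E2f7.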
